A study of Micropterus salmoides with 6 samples.

Results

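The calcium and phosphate hormone axis was followed as a list of 10 genes for hormones, receptors, vitamin D enzymes and ion carriers, matched by symbol to the 27166 gene IDs of the count table. Of the 10 names, 4 matched an ID: kl, casr, stc1 and stc2a. The other 6, vdra, vdrb, cyp24a1, pth1ra, slc34a2a and trpv6, matched no ID by these symbols and are not analysed under them. A gene named pth1r did have an ID and is described with the other receptors. Genes listed under a LOC number carry no descriptive name, so further copies of the listed genes were not looked for among them. Of the 4 matched genes, 3 had enough counts to be tested, and casr did not. RNA came from whole bodies of largemouth bass (Micropterus salmoides) larvae, a freshwater fish reared for food, after 12 days on the experimental diets. The SP_L libraries were made from larvae with visible skeletal deformity on a diet without added phospholipid (0%), and the SP_H libraries from normal larvae whose diet held 8% phospholipid. Both groups had 3 libraries, each a pool of 30 larvae from a tank. Larvae were picked by their appearance as well as by diet, so effects of diet and of deformity cannot be told apart.

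Vertebrates hold blood calcium and phosphate within narrow limits by hormones that act on kidney, gut, bone and, in fish, the ionocytes of gill and skin. In fish, stanniocalcin 1 from the corpuscles of Stannius lowers calcium uptake, while parathyroid hormone family peptides raise it. Klotho, the product of kl, is known from mammals as the kidney co-receptor through which the bone hormone FGF23 limits phosphate reabsorption, and the calcium-sensing receptor, the product of casr, reads extracellular calcium. Mineral supply from this system is needed for the skeleton to calcify, and the study asked how gene expression differs between deformed and normal larvae.

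Library totals lay between 14958887 and 16922264 counts. The edgeR quasi-likelihood test called 14 of 20627 genes (0.0679%) at an adjusted p of 0.05, 12 of them higher and 2 lower in SP_L. At an unadjusted p under 0.05 it counted 12.7% of the genes, and the groups did not overlap in 19.1%. Replicates were separate pools, so the p-values measure the spread between pools. SP_H replicate 3 stood apart in gut and liver genes and was low in several kidney markers, described with kl. Its summed enterocyte markers were 204 CPM (counts scaled to a common library size) against 379 to 400 CPM in the other SP_H libraries, and its summed hepatocyte markers were 2391 CPM against 3862 and 4201 CPM. The summed skeletal muscle markers were 85894 to 99223 CPM in SP_L and 66048 to 74057 CPM in SP_H. The summed bone and cartilage markers were 9893 to 10940 CPM in SP_L and 13507 to 14500 CPM in SP_H. Neither sum overlapped between the groups, but a few genes held most of each. For muscle, acta1b and mylpfb had means of 39000 and 24738 CPM in SP_L and 26800 and 19224 CPM in SP_H. Of 9 tested skeletal muscle markers the groups did not overlap in 4, while acta1a, ckmb, mylpfa, atp2a1 and ryr1b overlapped. Means of mylpfa were 14827 CPM in SP_L and 13915 CPM in SP_H. Log2 fold changes of mylpfa, atp2a1 and ryr1b were 0.09 ± 0.10, 0.01 ± 0.10 and 0.02 ± 0.11 (SE). For bone and cartilage, col1a1a, col1a1b and col1a2 had 3239, 2798 and 2558 CPM in SP_L and 4322, 3786 and 3394 CPM in SP_H. Of 15 tested bone and cartilage markers the groups did not overlap in 8, while runx2b, sp7, col2a1a and sox9a overlapped. In whole-body RNA, fewer cells of a type and less RNA per cell cannot be told apart.

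The klotho gene kl had the widest difference between the groups among the 3 tested genes of the list. It was present at 4.20, 2.44 and 3.81 CPM in SP_L replicates 1, 2 and 3, and at 1.74, 1.29 and 0.864 CPM in SP_H replicates 1, 2 and 3. Every SP_L library was above every SP_H library. The means were 3.48 ± 0.922 CPM in SP_L and 1.30 ± 0.439 CPM in SP_H (SD, n = 3 each), a fitted fold of 2.66 and a log2 fold change of 1.41 ± 0.35 (SE; unadjusted 95% interval 0.63 to 2.19). This did not pass edgeR's quasi-likelihood test over all genes (adjusted p = 0.133), while DESeq2 called it higher (log2 fold change 1.42, adjusted p = 0.0359). DESeq2 called 2.22% of all genes, and 1.61% as higher. The gene lay early in the list of all tested genes: 1.94% of them had a lower edgeR p, and 0.499% had a larger log2 fold change of either sign.

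Klotho transcripts were scarce, which limits the precision. The 3 SP_L libraries held 59, 39 and 58 kl counts and the 3 SP_H libraries held 29, 22 and 14. Summed per group this made 156 counts in SP_L (95% exact Poisson interval 132 to 182) and 65 counts in SP_H (50.2 to 82.8), so the intervals of counting error did not meet. The spread between pools was a coefficient of variation of 26.5% in SP_L and 33.8% in SP_H. Without SP_H replicate 3, the library with the fewest kl counts, the log2 fold change was 1.19 ± 0.36 (edgeR adjusted p = 0.295). Without SP_L replicate 1 it was 1.25 ± 0.39 (edgeR adjusted p = 0.342), and without SP_H replicate 2 it was 1.41 ± 0.42 (edgeR adjusted p = 0.345). With all libraries on the log2(FPKM + 1) scale, the log2 fold change of kl was 0.51 (limma adjusted p = 0.132). A pseudocount of 1 is of the size of the FPKM values themselves and understates the change of low genes. FPKM values are also scaled to the library total, and edgeR with library size alone as the scaling gave 1.29.

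**Figure D1:**
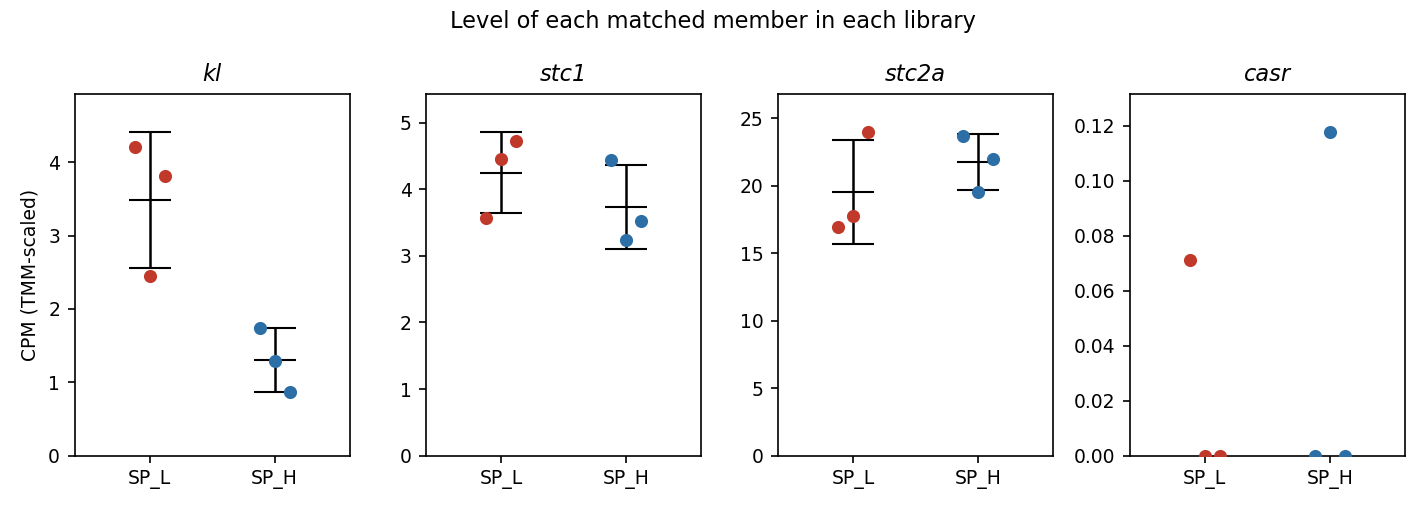
Level of each matched gene of the list in CPM (linear axes from 0) in the 3 SP_L libraries (red) and the 3 SP_H libraries (blue), with the mean and SD in black except for casr, which had 3 counts in all. The kl points of SP_L (2.44 to 4.20 CPM) lie above those of SP_H (0.864 to 1.74 CPM), while the points of stc1 and stc2a overlap.

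**Figure D2:**
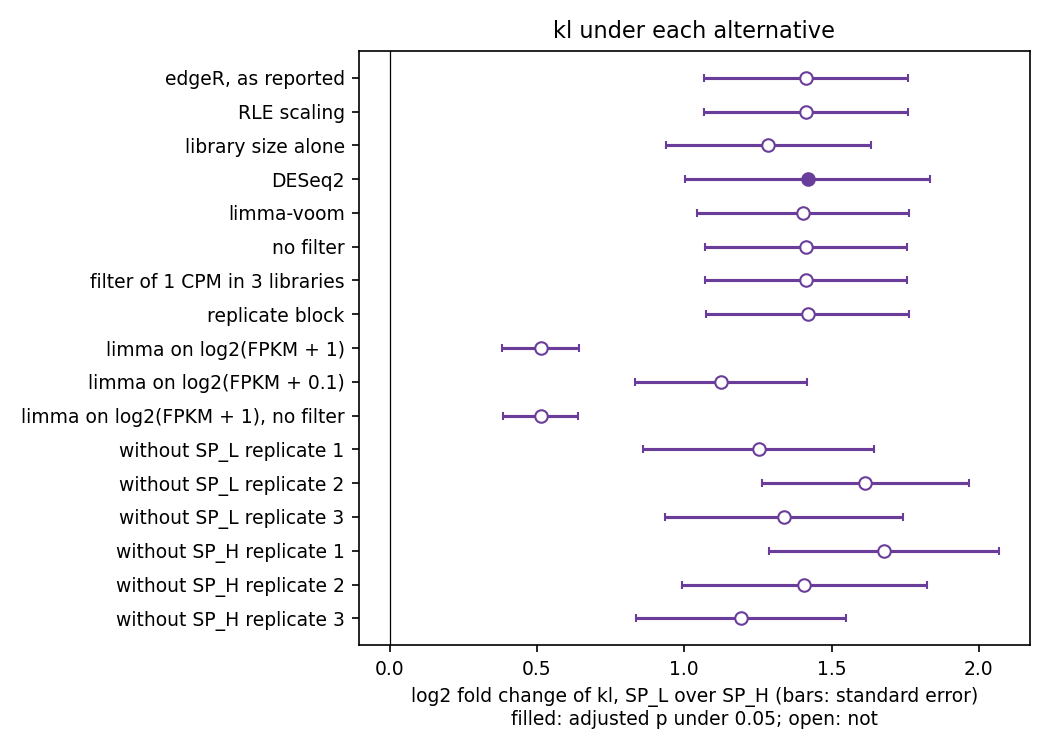
Log2 fold change of kl, SP_L over SP_H, with its standard error, as reported and under each alternative. All estimates are positive, from 0.51 on log2(FPKM + 1) to 1.68 without SP_H replicate 1, and only that of DESeq2 (filled) passes an adjusted p of 0.05.

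Kidney is the organ best known for klotho in mammals, and the summed level of its markers overlapped between the groups. Of 15 tested kidney tubule and glomerulus markers, 5 had positive and 10 negative log2 fold changes. By edgeR 0 were called (1 at an unadjusted p under 0.05) and by DESeq2 0, against 0.0679% and 2.22% of all genes. The summed level of the markers was 181 to 219 CPM in SP_L and 199 to 225 CPM in SP_H. The nephron transcription factor genes pax2a, pax8 and hnf1ba had log2 fold changes of -0.06 ± 0.20, -0.01 ± 0.29 and 0.09 ± 0.26. SP_H replicate 3, which had the lowest kl level, was the lowest library for 7 of these 15 markers, against 18.1% of all tested genes. SP_L replicate 1, which had the highest kl level, was the lowest library for 5 of them, against 20.5% of all tested genes. It also had the lowest summed level of kidney markers, 181 CPM. Of this sum, trpm7 made up 62.5 CPM and slc20a1a 26.6 CPM. In SP_H replicate 3 they made up 68.6 and 38.0 of 199 CPM. Both genes also stand in the calcium or phosphate lists, and they weigh heavily in the kidney sums. In SP_H replicate 3, pax8 had 2.53 CPM, against 4.80 and 5.58 CPM in the other SP_H libraries, and lay below every SP_L library. The kidney and gut cadherin gene cdh17 had 4.38 CPM there, against 15.5 and 14.3 CPM in the other SP_H libraries. The gene slc5a1, counted among both the kidney and the enterocyte markers, was also lowest there, at 0.864 CPM. The gene pax2a went the other way, at 6.67 CPM there, the highest of all 6 libraries. For hnf1ba the level there, 5.43 CPM, was below the other SP_H libraries but above SP_L replicate 1 (4.70 CPM). The lowest p of the kidney list belonged to lrp2a, which encodes the endocytic receptor megalin, at -0.32 ± 0.10 (edgeR adjusted p = 0.238), and the next to the glucose transporter gene slc5a2 at 0.47 ± 0.23 (adjusted p = 0.441). The muscle, bone, gut and liver levels given above stood beside kl in the same libraries, and their part in its difference was not tested.

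Of the partners through which klotho acts, fgfr1a was tested and not called, while fgf23 was too low to be tested. The hormone gene fgf23 was below the count filter, with 0, 6 and 4 counts in SP_L replicates 1, 2 and 3 and 12, 7 and 10 counts in SP_H replicates 1, 2 and 3. The sums were 10 counts in SP_L (95% exact Poisson interval 4.80 to 18.4) and 29 counts in SP_H (19.4 to 41.6), and no SP_L library reached the lowest SP_H library. An exact two-sided permutation test of log2 CPM gave p = 0.10, the smallest that 3 against 3 libraries allow, and edgeR without a count filter gave a log2 fold change of -1.39 ± 0.79 (adjusted p = 0.569). The receptor gene fgfr1a, whose product binds FGF23 together with klotho in mammals, had 76.9 ± 4.50 CPM in SP_L and 82.9 ± 8.25 CPM in SP_H (SD, n = 3 each), with a fitted log2 fold change of -0.11 ± 0.10. The related co-receptor gene klb, known in mammals for FGF19 and FGF21 signalling, had 1.42, 1.32 and 2.82 CPM in SP_L and 2.58, 1.94 and 0.679 CPM in SP_H, a log2 fold change of 0.09 ± 0.50 whose sign turned with library size alone as the scaling (-0.02). Its groups overlapped. The difference between the fold changes of kl and klb was not tested.

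The stanniocalcin 1 gene stc1 did not separate the groups. It had 3.56, 4.45 and 4.73 CPM in SP_L replicates 1, 2 and 3, and 4.44, 3.23 and 3.52 CPM in SP_H replicates 1, 2 and 3. The ranges overlapped, with means of 4.25 ± 0.609 CPM in SP_L and 3.73 ± 0.633 CPM in SP_H (SD, n = 3 each). The log2 fold change of 0.19 ± 0.22 had an unadjusted 95% interval of -0.32 to 0.69 (edgeR adjusted p = 0.781). A related name that was sought, stc1l, matched no ID, so these values cover the ID named stc1 alone.

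The gene stc2a encodes another stanniocalcin, whose mammalian relative is known for restraining a protease that frees insulin-like growth factors. It was the most abundant of the 4, with 16.9, 17.7 and 24.0 CPM in SP_L replicates 1, 2 and 3, and 23.7, 19.6 and 21.98 CPM in SP_H replicates 1, 2 and 3. SP_L replicates 1 and 2 were below all SP_H libraries, and SP_L replicate 3 was above them all. The log2 fold change of -0.15 ± 0.15 had an unadjusted 95% interval of -0.49 to 0.18 (edgeR adjusted p = 0.722). The paralogue stc2b varied more, with 1.07, 2.63 and 4.79 CPM in SP_L and 3.0, 1.70 and 1.73 CPM in SP_H, and a log2 fold change of 0.40 ± 0.49. For these 3 stanniocalcin genes the intervals include changes in both directions, so a difference was not detectable at this spread.

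The calcium-sensing receptor gene casr was almost undetected in whole larvae. There was 1 count in SP_L replicate 1 and 0 in SP_L replicates 2 and 3, and there were 2 counts in SP_H replicate 2 and 0 in SP_H replicates 1 and 3. Per group the 95% exact Poisson interval was 0.0253 to 5.57 counts in SP_L and 0.242 to 7.22 counts in SP_H. These counts allow no fold change, and an exact two-sided permutation test gave p = 1. Of another receptor of the same class in the lists, gprc6a, there was 1 count in SP_L and there were 2 counts in SP_H replicate 1. The transcription factor gene gcm2, needed for the parathyroid gland of mammals and for ionocytes of zebrafish, was tested at 2.02 ± 0.348 CPM in SP_L and 1.98 ± 0.834 CPM in SP_H (SD, n = 3 each), with a log2 fold change of 0.03 ± 0.36.

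Of the 3 tested genes of the list, 0 were thus called by edgeR against 0.0679% of all genes, and 1, kl, by DESeq2 against 2.22%. The same gene was the single one without overlap between the groups, against 19.1% of all tested genes, or 9.64% with SP_L above SP_H. Log2 fold changes were positive for kl and stc1 and negative for stc2a.

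**Figure D3:**
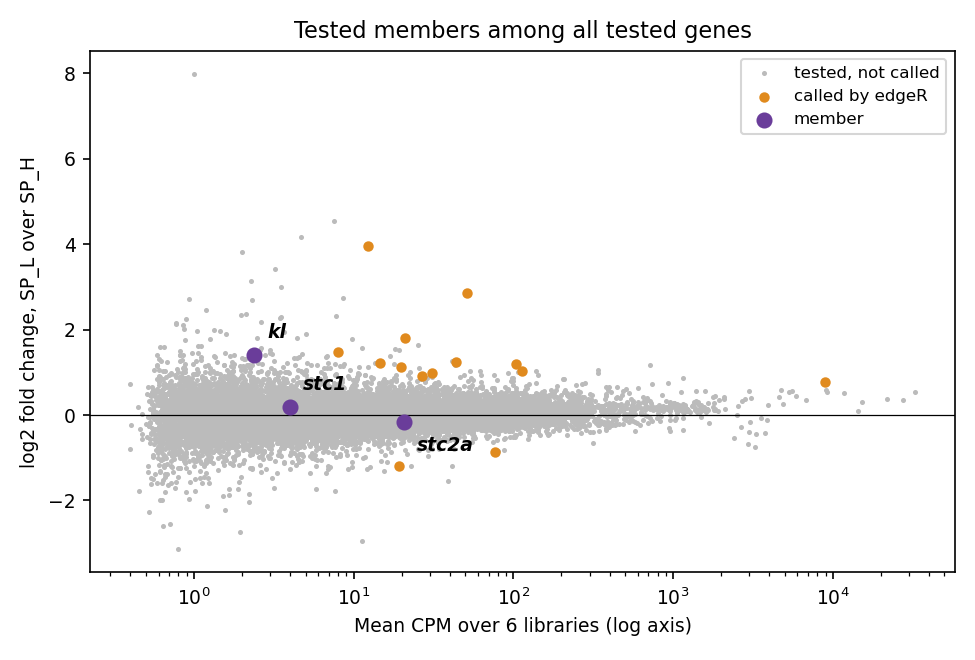
Log2 fold change (SP_L over SP_H) against mean CPM over 6 libraries (log axis) for all 20627 tested genes (grey), the 14 called by edgeR (orange) and the 3 tested genes of the list (purple). Gene kl lies at 1.41 among low genes, whose fold changes scatter widely, and stc1 and stc2a lie within the grey band.

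Levels between genes were compared per gene length, as the authors' FPKM (fragments scaled to gene length and to the library total). Averaged over all 6 libraries, stc2a had 5.60 FPKM, stc1 0.797, kl 0.728 and casr 0.00968. Of all tested genes, 58.7% had a mean FPKM below that of stc2a, 13.2% below that of stc1 and 11.9% below that of kl. Neither stc1 nor kl came near stc2a in any library: the lowest stc2a value was 4.29 FPKM and the highest of the other 2 was 1.22 FPKM. The order of stc1 and kl differed by group. In SP_L, kl had 1.22, 0.715 and 1.16 FPKM and stc1 0.668, 0.839 and 0.932 FPKM, so kl was above stc1 in replicates 1 and 3. In SP_H, kl had 0.568, 0.412 and 0.284 FPKM and stc1 0.933, 0.664 and 0.745 FPKM, so kl was below stc1 in every replicate. Over all 6 libraries the ranges of stc1 and kl overlapped, and the change of order was not tested.

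**Figure D4:**
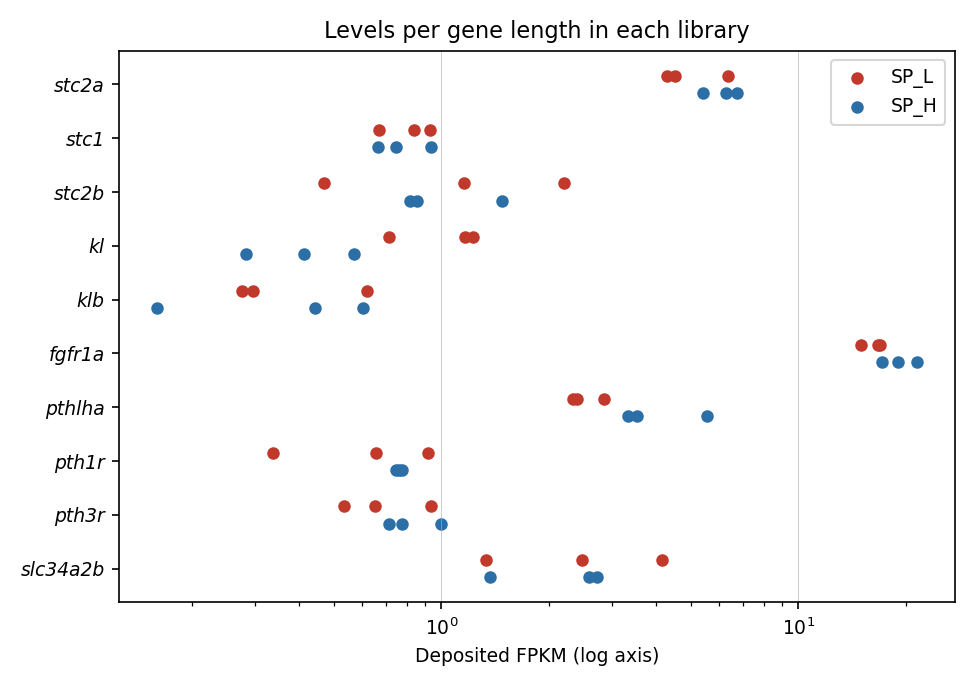
Deposited FPKM (log axis) in each SP_L library (red, upper row of a gene) and each SP_H library (blue, lower row) for kl, the stanniocalcin genes and relatives or partners of the listed genes. The points of kl separate by group, from 0.715 to 1.22 FPKM in SP_L and from 0.284 to 0.568 FPKM in SP_H, and fgfr1a lies above all other genes shown.

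Levels of the 3 tested genes of the list were also compared with each other across the same libraries. Pearson correlations of log2 CPM over the 6 libraries, given as a description, were 0.47 between kl and stc1, -0.28 between kl and stc2a and 0.42 between stc1 and stc2a. Among 12641 tested genes with a symbol and a mean of at least 1 CPM, those most like kl were afmid (r = 0.995), st3gal8 (0.995) and rbm24b (0.993), with log2 fold changes of 0.30, 0.70 and 0.52. Those most like stc1 were plekhm2 (0.980), retsat (0.974) and ppm1k (0.972). Over only 6 libraries such values were not unique to the named genes: of the 12641 genes, 93 had r over 0.95 with kl and 17 with stc1.

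The rest of the axis was described by lists of other hormones, receptors, vitamin D genes and carriers. Of 103 names, 62 matched an ID and 57 were tested. By edgeR 0 were called, and by DESeq2 0, against 0.0679% and 2.22% of all genes. In 9 of the 57, 2 higher and 7 lower in SP_L, the unadjusted edgeR p was under 0.05, against 12.7% of all tested genes. Log2 fold changes were positive in 24 and negative in 33, and the median was -0.03 beside 0.00 for all tested genes. With library size alone as the scaling, which moves the median of all genes to -0.13, 14 were positive and 43 negative.

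Among 6 tested genes of the hormone list 4 were positive and 2 negative. Their median was 0.10 (-0.04 with library size alone, 3 positive and 3 negative). The transcription factor gene gcm2 (0.03), counted among the positive ones, is not a hormone gene and also stands among the ionocyte markers. The lowest p belonged to smtla, the gene of somatolactin, a pituitary hormone of fish related to growth hormone and prolactin. It had 0.356, 0.627 and 1.31 CPM in SP_L and 1.08, 4.0 and 2.59 CPM in SP_H, with a log2 fold change of -1.72 ± 0.57 (SE; edgeR adjusted p = 0.242). Its groups overlapped through SP_L replicate 3 and SP_H replicate 1. Without SP_L replicate 3 the log2 fold change was -2.35 (edgeR adjusted p = 0.220), and without SP_H replicate 2 it was -1.24 (adjusted p = 0.560). The gene pthlha encodes a parathyroid hormone-related peptide, which acts on calcium balance in fish. It had 4.34, 4.45 and 5.05 CPM in SP_L and 5.52, 5.99 and 9.14 CPM in SP_H, with a log2 fold change of -0.57 ± 0.23 (SE; edgeR adjusted p = 0.326). No SP_L library reached the lowest SP_H library, and SP_H replicate 3 was the highest of all. Without that library the log2 fold change was -0.32 (edgeR adjusted p = 0.646). The calcitonin gene calca had 12.4, 6.08 and 5.71 CPM in SP_L and 11.2, 3.0 and 7.35 CPM in SP_H, with a log2 fold change of 0.16 ± 0.44. The gene pth4, known from zebrafish as a hypothalamic regulator of phosphate, had 0.19 ± 0.75.

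Among 15 tested receptor and co-receptor genes 8 were positive and 7 negative, 0 had an unadjusted p under 0.05, and the median was 0.06 (-0.07 with library size alone, 4 positive and 11 negative). The parathyroid hormone receptor genes pth1r and pth3r had 2.62 ± 1.13 and 2.44 ± 0.756 CPM in SP_L, and 2.89 ± 0.0963 and 2.59 ± 0.445 CPM in SP_H (SD, n = 3 each). Their log2 fold changes were -0.13 ± 0.33 and -0.09 ± 0.30. The retinoid X receptor genes rxrgb and rxrba, whose products pair with the vitamin D receptor, had log2 fold changes of 0.29 ± 0.18 and -0.12 ± 0.08 (edgeR adjusted p = 0.542 and 0.584). The prolactin receptor gene prlrb had 0.22 ± 0.15, and nr1i2, which encodes the pregnane X receptor, a close relative of the vitamin D receptor, had 0.56 ± 0.40.

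Of the genes for vitamin D supply, 4 were tested, 1 positive and 3 negative, and the median was -0.24 (-0.37 with library size alone). Megalin, cubilin and amnionless, the products of lrp2a, cubn and amn, take up vitamin D with its binding protein in the mammalian kidney. The gene lrp2a had 21.4, 26.5 and 23.4 CPM in SP_L and 29.3, 29.6 and 29.9 CPM in SP_H, so every SP_L library was below every SP_H library (edgeR adjusted p = 0.238). The log2 fold changes of cubn and amn were -0.74 ± 0.52 and -0.17 ± 0.22. The gene dhcr7 encodes the enzyme of cholesterol synthesis that uses up the precursor of vitamin D made in skin. It had 107, 104 and 67.9 CPM in SP_L and 58.9, 71.9 and 68.5 CPM in SP_H, and its log2 fold change was 0.49 ± 0.16 (edgeR adjusted p = 0.253). SP_L replicate 3 lay within the SP_H range.

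Calcium transport and binding genes were mostly on the lower side, without a call. Of 19 tested, 4 were positive and 15 negative, and 3 had an unadjusted p under 0.05, against 12.7% of all tested genes. The median was -0.12 (-0.25 with library size alone, 1 positive and 18 negative). Among these 19 genes the groups did not overlap in 5, all lower in SP_L, against 19.1% of all tested genes in either direction and 9.46% lower. Over all 57 tested genes of the axis lists the groups did not overlap in 9, with 1 gene in each list other than this one. The lowest p belonged to the sodium-calcium exchanger genes slc8a4a and slc8a2a. The gene slc8a4a had 0.854, 1.13 and 1.25 CPM in SP_L and 2.28, 2.64 and 2.41 CPM in SP_H, with a log2 fold change of -1.17 ± 0.30 (SE; edgeR adjusted p = 0.146). The gene slc8a2a had 2.71, 2.01 and 2.23 CPM in SP_L and 5.34, 4.29 and 3.64 CPM in SP_H, with a log2 fold change of -0.94 ± 0.25 (adjusted p = 0.161). In both, no SP_L library reached the lowest SP_H library. The calcium-binding protein gene calb2a, whose product calretinin is known as a marker of neurons, had 55.4 ± 1.69 CPM in SP_L and 66.8 ± 2.69 CPM in SP_H (SD, n = 3 each), and its log2 fold change was -0.27 ± 0.08 (edgeR adjusted p = 0.190). The calcium channel gene orai1b had 0.45 ± 0.20 (adjusted p = 0.402).

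Phosphate carriers and mineral enzymes were divided, with 7 positive and 6 negative among 13 tested. Their median was 0.02 (-0.10 with library size alone, 5 positive and 8 negative). The alkaline phosphatase gene alpl, whose enzyme removes a blocker of mineral growth in bone, had 50.9, 50.3 and 49.0 CPM in SP_L and 58.2, 59.5 and 60.1 CPM in SP_H. The groups did not overlap, with a log2 fold change of -0.24 ± 0.08 (SE; edgeR adjusted p = 0.215). The phosphate transporter gene slc20a2 had 0.24 ± 0.10 (adjusted p = 0.362), the matrix vesicle phosphatase gene phospho1 -0.26 ± 0.15 (-0.06 without SP_H replicate 3) and the pyrophosphate transport gene ankha -0.16 ± 0.12. The intestinal type sodium-phosphate transporter gene slc34a2b, a paralogue of a listed gene, had 7.83, 4.20 and 12.5 CPM in SP_L and 7.33, 7.87 and 3.83 CPM in SP_H. Its groups overlapped, with a log2 fold change of 0.36 ± 0.38.

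**Figure D5:**
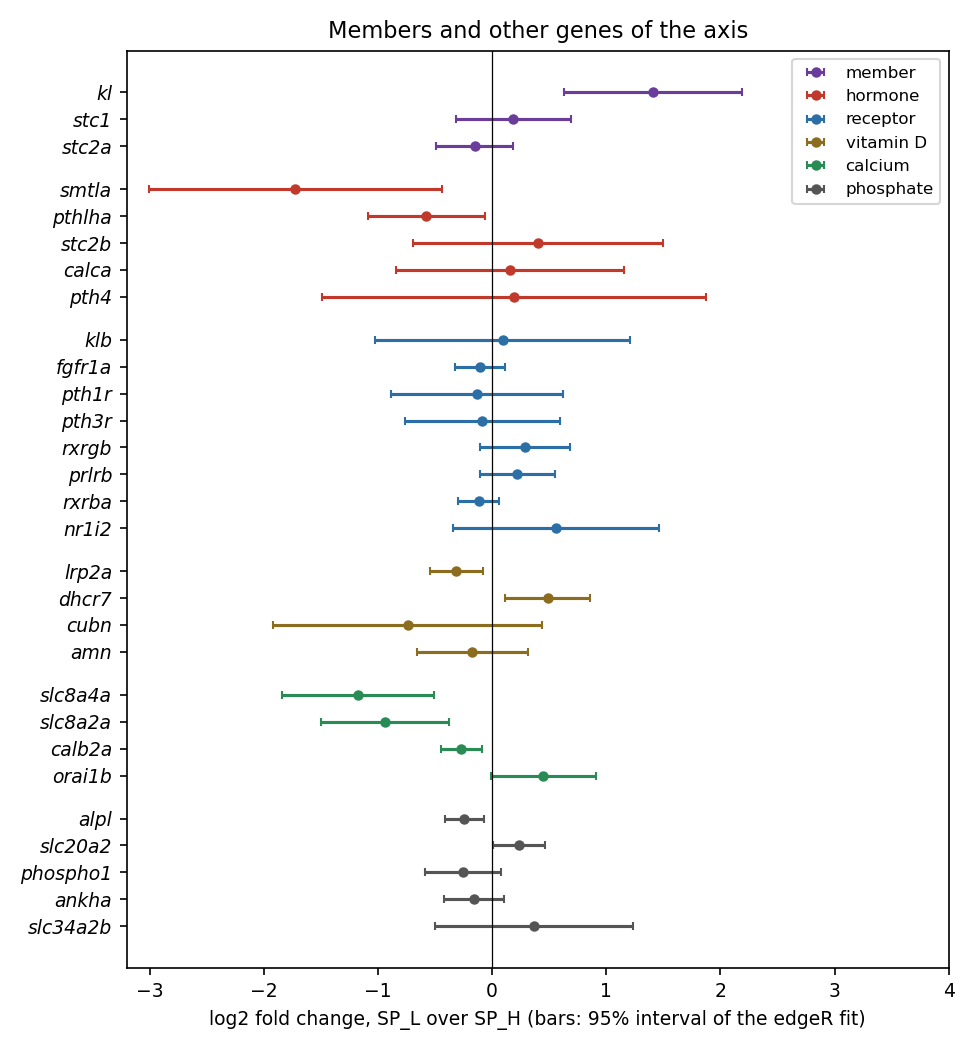
Log2 fold change, SP_L over SP_H, with the unadjusted 95% interval of the edgeR fit for the 3 tested genes of the list (purple) and for other named genes of the axis by role. The interval of kl, 0.63 to 2.19, lies above 0 and those of stc1 and stc2a cross it, and none of the genes shown was called after adjustment over all genes.

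Tissues in which these genes act were also compared by their markers. Of 8 tested ionocyte markers, 2 were positive and 6 negative, and 0 had an unadjusted p under 0.05. The sum of the ionocyte list was 145 to 159 CPM in SP_L and 150 to 172 CPM in SP_H. Mostly it came from atp6v1ab and slc12a2, with 61.0 and 51.0 of 145 CPM in SP_L replicate 1. In SP_H replicate 3 they had 66.5 and 64.8 of 172 CPM. The ionocyte factor gene foxi3b had a log2 fold change of -0.64 ± 0.42 (SE; edgeR adjusted p = 0.580). Its relatives foxi3a and foxi1 were below the count filter and were not tested. Gene foxi3a was at 0 counts in SP_L replicates 2 and 3 and SP_H replicate 2. Gene foxi1 had 5, 7 and 5 counts in SP_L and 11, 8 and 10 counts in SP_H. In CPM this was 0.374 ± 0.0574 in SP_L and 0.583 ± 0.0998 in SP_H (SD, n = 3 each). Of 8 tested enterocyte markers, all were positive with a median of 0.29. Of these, edgeR and DESeq2 called 0, against 0.0679% and 2.22% of all genes. Their sum was 357 to 421 CPM in SP_L and 204 to 400 CPM in SP_H, the lowest being SP_H replicate 3. Most of this sum was apobb.1, with 291 of 357 CPM in SP_L replicate 1 and 177 of 204 CPM in SP_H replicate 3. The gut fatty acid carrier gene fabp2 had a log2 fold change of 0.49 ± 0.16 (SE; edgeR adjusted p = 0.245). Of 15 tested bone and cartilage markers, 14 were negative, and DESeq2 called 5 lower, against 0.608% of all genes, and edgeR 0 (8 at an unadjusted p under 0.05, against 12.7% of all genes). The osteoblast factor genes runx2b and sp7 had -0.11 ± 0.11 and -0.12 ± 0.22. Of 7 hepatocyte markers 6 were positive, among them fga at 0.16 ± 0.24 and fgb at 0.21 ± 0.21. Here too edgeR and DESeq2 called 0, beside the same shares of all genes. SP_H replicate 3 was the lowest library for 6 of these 7 markers and for all 8 enterocyte markers, against 18.1% of all tested genes. Of 9 skeletal muscle markers 8 were positive, and edgeR called the creatine kinase gene ckma higher (log2 fold change 0.78, adjusted p = 0.0412). DESeq2 called 4 of the 9 higher, against 1.61% of all genes. The actin genes acta1a and acta1b had -0.53 ± 0.42 and 0.54 ± 0.08. With library size alone as the scaling, the positive and negative counts were 5 and 4 for muscle, 0 and 8 for ionocyte, 2 and 13 for kidney, 7 and 1 for enterocyte, 0 and 15 for bone and cartilage and 5 and 2 for hepatocyte markers. The parts of these tissues in the values of the axis genes were not tested.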

How the data were processed

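The authors deposited whole-number counts per gene, not normalized, and FPKM values, with 1 column per library in each table. The deposited FPKM values are the counts over gene length and library total: for all 24734 genes with counts in several libraries, the implied length was the same in each within 1 part in 10000. The tools named, per the submitters' processing notes, are HISAT2, HTSeq, StringTie, Cufflinks, Trimmomatic, Bowtie2, SAMtools and DESeq, without versions or the step each served. Because those notes give a mouse build for libraries whose gene names are of largemouth bass, no coordinates are printed.

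The counts were fitted with edgeR 4.0.16 (R 4.3.3): filterByExpr (minimum count 10, minimum total count 15), TMM scaling, the quasi-likelihood F test and Benjamini-Hochberg adjustment over all 20627 tested genes at 0.05. CPM values are TMM-scaled. Standard errors of edgeR values were derived as the absolute log2 fold change over the square root of F, and the intervals were built from them. An interval that excludes 0 thus restates an unadjusted p under 0.05. Alternatives were DESeq2 1.42.0, limma 3.58.1 (voom, or log2 of FPKM plus 1 or 0.1), RLE scaling, library size alone, no count filter or one of 1 CPM in 3 libraries, a block for the replicate number, and leaving out each library. The steps were tested on simulated data. Named genes are the listed genes with an ID, up to 4 with the lowest p in each role list, the first markers of each tissue list and the 3 genes most correlated with kl and stc1. The listed genes and role lists were chosen with earlier results of these data known. The genes fgf23, klb, fgfr1a, pth3r, pth4, slc34a2b, pth2, pth2ra, calcr, gprc6a, gcm2 and slc5a2 were named after their values were seen, and pth1r was added to its list because pth1ra matched no ID. Kidney markers cdh17, slc5a1, trpm7 and slc20a1a and muscle markers mylpfa, mylpfb, ckma, ckmb, atp2a1 and ryr1b were likewise named with their values known. The same holds for col1a1a, col1a1b, col1a2, col2a1a and sox9a of the bone and cartilage list, and for atp6v1ab, slc12a2 and apobb.1. Poisson intervals cover counting error only.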

Additional observations from a re-analysis of the deposited data

How the results depend on the processing

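Over 16 alternatives each, kl stayed positive (0.51 to 1.68), as did stc1 (0.03 to 0.33), and stc2a stayed negative (-0.33 to -0.07); leaving out single libraries gave 1.19 to 1.68, 0.09 to 0.33 and -0.33 to -0.07. Only DESeq2 called any of them: kl, at a log2 fold change of 1.42, so that the number of called genes of the list was 1 in place of 0. The other adjusted p-values of kl lay between 0.117 and 0.345. The count over all genes, 14, was 449 by DESeq2, 57 without a filter, 5 with library size alone, 2 with the replicate number as a block, 0 in the 3 fits of FPKM (3639, 3614 and 3881 genes at an unadjusted p under 0.05), and 0 to 22 when single libraries were left out. The block left kl at 1.42 (edgeR adjusted p = 0.232) and changed no call in the list. Residuals within the groups had correlations of -0.07, -0.09 and -0.10 for same-numbered libraries, and of 0.016 to 0.070 for differently numbered ones. Libraries of the same number were thus not more alike than others. Signs turned for klb with library size alone (-0.024) and on log2(FPKM + 1) with or without a filter (-0.00082). Leaving out single libraries gave ranges across 0 for klb (-0.35 to 0.50), calca (-0.29 to 0.64), stc2b (-0.21 to 0.78), pth1r (-0.46 to 0.15), pth3r (-0.36 to 0.10), pth4 (-0.35 to 1.34) and slc34a2b (-0.087 to 0.68). Depth limits casr, fgf23 and, with 14 to 59 counts per library, kl.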

Other observations

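Some genes of the axis lists fell below the count filter. The hormone gene pth2 had 7, 5 and 2 counts in SP_L and 1, 2 and 1 counts in SP_H, which touch at 2 counts but do not overlap in CPM. An exact two-sided permutation test of its log2 CPM gave p = 0.10, the smallest that 3 against 3 libraries allow, and edgeR without a count filter gave a log2 fold change of 1.86 ± 0.90 (adjusted p = 0.480). The receptor gene pth2ra had 5, 1 and 11 counts in SP_L and 10, 4 and 5 counts in SP_H. The calcitonin receptor gene calcr had 6, 11 and 7 counts in SP_L and 8, 12 and 7 counts in SP_H.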
